A study of Mus musculus with 10 samples.

Results

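The receptors described here are 6 surface proteins that T cells use to receive costimulation: Tnfrsf4 (OX40), Tnfrsf9 (CD137), Tnfrsf18 (GITR), Tnfrsf1b (the second TNF receptor), Cd27 and Cd28. Their rows were taken by gene symbol from the feature tables of 5 single-cell RNA libraries, so they are 6 of 31053 features. The libraries hold tumour-infiltrating T lymphocytes of mouse colorectal carcinoma, and 5 further libraries give the chains of each cell's T cell receptor (TCR). The labels give 2 RNA libraries from tumours under S. Chamaejasme plus anti-PD-1 therapy, called the combination below, 1 library from a tumour treated with S. Chamaejasme, and 2 libraries from untreated tumours. S. Chamaejasme (Stellera chamaejasme) is a flowering plant, and anti-PD-1 is an antibody that blocks PD-1, an inhibitory receptor of T cells. Strain, age, sex, dose, tumour model, and whether libraries came from separate animals are not given in the labels, so p values measure the spread between these libraries only. Anti-PD-1 was given only together with the plant, so what it does alone cannot be seen. The plant alone has 1 library, so the shares of plant and antibody in a result can be set apart only with that limit.

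A T cell that binds antigen through its TCR needs further signals to divide, survive and make cytokines. Cd28 is present on resting T cells and binds Cd80 and Cd86 of antigen-presenting cells, for which Ctla4 competes. Cd27, whose ligand is Cd70, is present on resting and memory cells and is lost from many late effector cells. Tnfrsf4, Tnfrsf9 and Tnfrsf18 are induced by activation and bind Tnfsf4, Tnfsf9 and Tnfsf18, and Tnfrsf1b binds Tnf and Lta. All but Cd28 belong to the TNF receptor family, which recruits TRAF adaptors and leads to NF-kB activity. Regulatory T cells (Treg), which hold back other T cells, are known to carry several of these receptors in tumours.

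All 6 genes are protein coding in the GENCODE annotation of GRCm38, the build named mm10 in the submitters' processing notes. Of the members, 4 lie on chromosome 4: Tnfrsf1b at chr4:145213463-145246870 on the minus strand, and on the plus strand Tnfrsf9 at chr4:150914562-150946102, Tnfrsf4 at chr4:156013843-156016612 and Tnfrsf18 at chr4:156026164-156028895. Tnfrsf4 and Tnfrsf18 are 9551 bases apart with 2 genes between them. Cd27 lies at chr6:125232622-125237010 on the minus strand and Cd28 at chr1:60716800-60773359 on the plus strand. Tnfrsf9, Tnfrsf18 and Cd27 overlap genes of the opposite strand (Camta1, Gm16008 and Vamp1), and whether counting used the strand is not given in the sources used here.

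Promoter windows are shown for the 3 members whose levels followed each other most closely over classes and libraries (below), Tnfrsf9, Tnfrsf18 and Tnfrsf4. RefSeq (GRCm38.p6) gave windows from 250 bases before to 50 bases after a transcript start for 5 of the 6 members, and Tnfrsf9 had a pair of windows. The motifs searched on both strands were AP-1 (TGANTCA), NFAT (TGGAAA), forkhead (TGTTTAC) and NF-kB (its decamer, whose sites can overlap one another). Capitals mark every match.
Tnfrsf9, chr4:150919905-150920204, plus strand: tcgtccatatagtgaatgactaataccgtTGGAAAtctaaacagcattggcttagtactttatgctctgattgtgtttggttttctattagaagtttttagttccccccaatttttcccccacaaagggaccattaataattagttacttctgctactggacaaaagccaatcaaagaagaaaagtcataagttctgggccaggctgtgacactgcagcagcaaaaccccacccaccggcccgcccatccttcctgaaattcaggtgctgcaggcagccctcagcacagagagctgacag
Tnfrsf9, chr4:150927749-150928048, plus strand: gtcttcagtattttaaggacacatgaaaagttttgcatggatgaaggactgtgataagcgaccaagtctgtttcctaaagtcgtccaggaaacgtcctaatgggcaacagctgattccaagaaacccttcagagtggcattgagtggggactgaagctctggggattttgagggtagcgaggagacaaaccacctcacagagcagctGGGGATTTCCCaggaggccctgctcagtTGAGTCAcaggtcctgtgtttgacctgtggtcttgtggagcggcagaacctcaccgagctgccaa
Tnfrsf4, chr4:156013445-156013744, plus strand: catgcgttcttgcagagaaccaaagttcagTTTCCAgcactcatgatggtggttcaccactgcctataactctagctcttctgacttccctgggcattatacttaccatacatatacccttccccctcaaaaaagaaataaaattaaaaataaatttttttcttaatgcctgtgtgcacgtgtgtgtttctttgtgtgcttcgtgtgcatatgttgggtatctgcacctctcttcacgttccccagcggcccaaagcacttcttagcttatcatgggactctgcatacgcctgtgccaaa
Tnfrsf18, chr4:156026072-156026371, plus strand: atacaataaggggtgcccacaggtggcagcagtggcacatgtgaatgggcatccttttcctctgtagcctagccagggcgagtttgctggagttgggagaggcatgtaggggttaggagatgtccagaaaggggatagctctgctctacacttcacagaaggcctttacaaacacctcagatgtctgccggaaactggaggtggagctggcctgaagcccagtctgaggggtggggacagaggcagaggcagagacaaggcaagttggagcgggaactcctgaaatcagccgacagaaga
The first Tnfrsf9 window held an NFAT match, and the other held an AP-1 match and overlapping NF-kB matches just before the start. The Tnfrsf4 window held an NFAT match on its minus strand, and the Tnfrsf18 window held none of the 4 motifs. Of 32851 promoter windows of this length, AP-1 was in 7.81%, NFAT in 21.4%, forkhead in 3.65% and NF-kB in 4.51%, and a match here is a description of letters only.

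The RNA libraries held 8763821 to 27759543 UMIs (unique molecular identifiers, each counting 1 captured transcript) in 2367 to 5709 barcodes, and 2244 to 5044 cells per library, 20239 in all, passed the filters. Median UMIs per kept cell were 4906 and 4831 in the combination libraries, 3404 in the S. Chamaejasme library, and 3522 and 3915 in the untreated libraries. Between 61 and 98 kept barcodes of a library also occurred in another. Clusters made with the 6 members left out of the variable genes gave CD4 conventional T-like, CD8 T-like and Treg-like classes. Of these, cluster 7 was placed with CD4 conventional T-like cells by its coreceptors alone, with Cd4 at 87.7 CPM (counts scaled to a common total per sum) against 5.58 for Cd8a and 16.7 for Cd8b1, and 0 markers of that class were raised or leading in it. The Treg list summed to 3636 to 5425 CPM in Treg-like cells against 400 to 675 in CD4 conventional T-like cells and 236 to 391 in CD8 T-like cells. The CD8 list summed to 7777 to 15694 CPM in CD8 T-like cells and to at most 995 in the others. Markers of fibroblasts were at 0.733 CPM or lower in every class, and erythroid genes reached 651 CPM in CD4 conventional T-like cells under S. Chamaejasme, against at most 5.89 in every other class and library.

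Treg cells carried Tnfrsf4, Tnfrsf9, Tnfrsf18 and Tnfrsf1b at higher levels than CD4 conventional and CD8 cells. For this comparison cells were gated on UMIs of Cd4, Cd8a, Cd8b1 and Foxp3 alone, which gave 29 to 181 Treg, 498 to 981 CD8 and 535 to 1705 CD4 conventional cells per library, and counts were summed per library. Over all libraries the CD4 conventional gate held 338 cells of the Treg-like clusters, and the CD8 gate 422 cells of the CD4 conventional T-like clusters. In gated Treg cells Tnfrsf4 was at 1189 and 1132 CPM in the combination libraries, 1544 in the S. Chamaejasme library, and 839 and 1084 in the untreated libraries. In gated CD8 cells it was at 12.3, 10.5, 21.7, 29.0 and 25.5 CPM in the same order, and in CD4 conventional cells at 179, 193, 199, 229 and 235 CPM. The 3 classes did not overlap in any library. The log2 change was 2.33 ± 0.14 (SE) for Treg against CD4 conventional cells (adjusted p = 2.88e-11), 5.76 ± 0.18 for Treg against CD8 cells (1.73e-16) and -3.43 ± 0.17 for CD8 against CD4 conventional cells (8.73e-13). These are Benjamini-Hochberg adjusted p values of edgeR's quasi-likelihood test with the library as a block, over 9327 genes, and under 0.05 counts as passing. Under 10 alternatives the 3 Tnfrsf4 changes ranged over 2.21 to 3.26, 5.58 to 7.23 and -3.96 to -3.27 in the same order, and all passed.

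Tnfrsf9 stood furthest apart between Treg and CD4 conventional cells. It was at 937 and 695 CPM in gated Treg cells of the combination, 1261 in those of S. Chamaejasme, and 868 and 906 in untreated ones, against 65.3, 72.7, 67.7, 38.1 and 75.2 CPM in CD4 conventional cells and 11.2, 16.7, 23.7, 24.4 and 36.8 CPM in CD8 cells. Each of the 5 libraries gave the same order of gated classes. The log2 changes were 3.61 ± 0.16 for Treg against CD4 conventional cells, 5.18 ± 0.19 for Treg against CD8 cells and -1.57 ± 0.19 for CD8 against CD4 conventional cells. With cluster classes in place of gates the first of these was 5.45 and the last -0.39 (adjusted p = 0.29). There the order of CD8 T-like and CD4 conventional T-like cells was turned in both untreated libraries, at 26.1 and 17.9 CPM against 16.7 and 11.4.

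Tnfrsf18 and Tnfrsf1b were also higher in Treg cells, and they differed in which other class came next. Tnfrsf18 was at 459.6 to 692 CPM in gated Treg cells, 62.1 to 96.0 in CD8 cells and 125 to 144 in CD4 conventional cells, with log2 changes of 1.90 ± 0.09 for Treg against CD4 conventional, 2.74 ± 0.10 for Treg against CD8 and -0.84 ± 0.09 for CD8 against CD4 conventional cells. Tnfrsf1b was at 212 to 305 CPM in Treg cells, 67.4 to 118 in CD8 cells and 52.0 to 82.998 in CD4 conventional cells. Its log2 change was 1.92 ± 0.12 for Treg against CD4 conventional, 1.37 ± 0.12 for Treg against CD8 and 0.55 ± 0.11 for CD8 against CD4 conventional cells, and of the 5 members that passed between CD8 and CD4 conventional cells it was the only one higher in CD8 cells. Between CD8 and CD4 conventional cells, cluster classes gave -0.50 for Tnfrsf18 and 0.95 for Tnfrsf1b, and both passed.

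Cd27 and Cd28 differed far less between classes. Cd27 was at 202 to 321 CPM in gated Treg cells, 98.2 to 198 in CD8 cells and 99.9 to 184 in CD4 conventional cells, with a log2 change of 0.63 ± 0.11 for Treg against CD4 conventional cells (adjusted p = 0.000103), 0.56 ± 0.11 for Treg against CD8 cells and 0.08 ± 0.09 for CD8 against CD4 conventional cells (adjusted p = 0.6). Cd28 was at 442 to 733 CPM in Treg cells, 254 to 509 in CD8 cells and 385 to 547 in CD4 conventional cells. Its change did not pass for Treg against CD4 conventional cells (-0.05 ± 0.10) and was -0.33 ± 0.09 for CD8 against CD4 conventional cells (adjusted p = 0.00865, and 0.0519 without combination replicate 2). Its change of 0.28 ± 0.10 for Treg against CD8 cells passed (adjusted p = 0.0391), and was lost without the S. Chamaejasme library (0.16), without combination replicate 1 (0.19) and without combination replicate 2 (0.30), with DESeq2 (0.27, adjusted p = 0.0716) and with a gate of 2 Foxp3 UMIs (0.22, adjusted p = 0.305), 5 of 10 alternatives. In all, 5 of 6 members passed for Treg against CD4 conventional cells, 6 for Treg against CD8 and 5 for CD8 against CD4 conventional, where 26.4%, 35.1% and 24.7% of all genes tested passed.

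**Figure D1:**
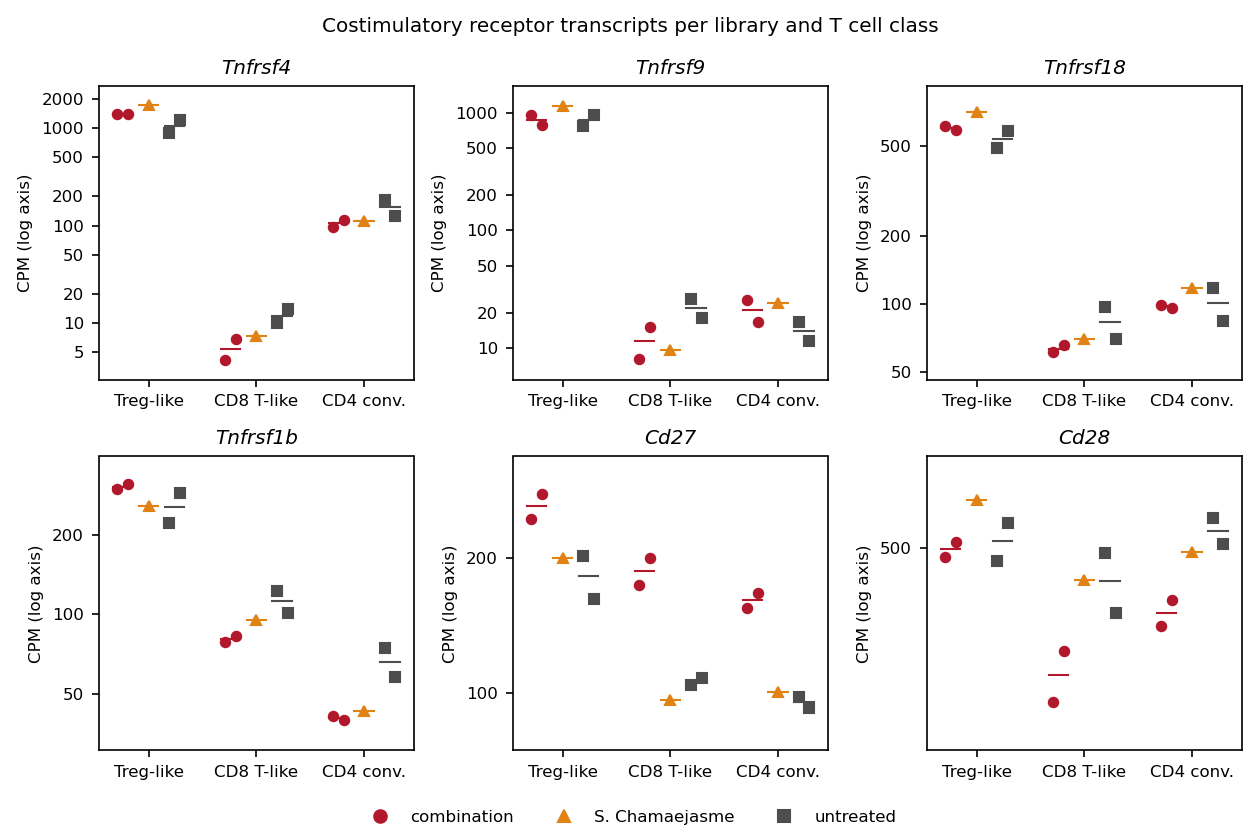
Level of each receptor in CPM of summed counts (log axis) per library in the 3 cluster classes. Points are libraries, lines are group means (combination and untreated, n = 2, S. Chamaejasme, n = 1). Tnfrsf4, Tnfrsf9, Tnfrsf18 and Tnfrsf1b are highest in Treg-like cells in all 5 libraries, and Cd27 is higher in both combination libraries than in the other 3 in every class.

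More Treg-like cells than other cells held several of the receptors. Whether the receptors met in a cell more often than their single shares imply was not tested. Cells with at least 2000 UMIs were thinned to that number. Those with fewer were left out, 255 of 2288 Treg-like, 112 of 3176 CD8 T-like and 734 of 12866 CD4 conventional T-like cells. In the S. Chamaejasme library 418 of 553 Treg-like cells stayed. Among thinned cells, at least 3 of the 6 receptors had a UMI in 63.9 and 66.9% of Treg-like cells of the combination, 70.3% of those of S. Chamaejasme, and 55.4 and 63.2% of untreated ones. In CD8 T-like cells this share was 3.66 to 5.80%, and in CD4 conventional T-like cells 7.16 to 8.18%. No library of another class came near the lowest Treg-like value. The thinned share of cells with a Tnfrsf4 UMI had a median over libraries of 71.6% in Treg-like cells (84.8% before thinning) and 11.8% in CD4 conventional T-like cells (17.6% before), against 1.35% in CD8 T-like cells (2.41% before). The shares before thinning are over all kept cells, so the cells are not the same. For Tnfrsf9 the thinned medians were 46.1%, 2.37% and 1.55%. Median UMIs per cell ran from 2595 to 4232 in Treg-like, 3904 to 5938 in CD8 T-like and 3462 to 4928 in CD4 conventional T-like libraries, and no class here is certain to lack these genes, so the lowest share, that of Tnfrsf4 in CD8 T-like cells, is given for comparison with the others.

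Within each class the receptors were uneven between clusters, which is described here without a test because clusters are built from all other genes. Of the Treg-like clusters, cluster 6 (leading genes Penk, Klrg1, Cd83, Ccr8 and Foxp3) had Tnfrsf4 at 1639 ± 351 CPM (SD, n = 5 libraries), Tnfrsf9 at 1293 ± 210 and Tnfrsf1b at 371 ± 59.1. Cluster 10 (Lrrc32, Ecm1, Gpr83 and Foxp3) had the same genes at 591 ± 105, 118 ± 37.7 and 61.5 ± 17.1 CPM. The Tnfrsf9 and Tnfrsf1b levels of the Treg-like class were therefore mostly those of cluster 6, while Tnfrsf4 and Tnfrsf18 (710.4 ± 78.3 and 347 ± 68.3 CPM in clusters 6 and 10) were high in both. Mean Tnfrsf1b in cluster 10 lay below that of CD8 cluster 8 (186 CPM) and CD4 cluster 3 (175 CPM). It lay above that of the other CD8 T-like and CD4 conventional T-like clusters.

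Of the CD4 conventional T-like clusters, Tnfrsf4 was at 376 ± 56.2 CPM in cluster 1 (leading genes Tox2, Tbc1d4, Tnfsf8 and Il21) and 252 ± 85.3 in cluster 3 (Il17a, Il22 and Il17f), against 14.5 ± 6.37 to 46.2 ± 18.0 in the other 4 clusters. Clusters 1 and 3 parted for Cd27 and Tnfrsf1b. Cluster 3 had Cd27 at 18.8 ± 8.92 CPM and Tnfrsf1b at 175 ± 49.6, and cluster 1 had Cd27 at 184 ± 41.2 and Tnfrsf1b at 43.9 ± 11.3. Cd28 was at 1025 ± 86.9 CPM in cluster 3, above its level in every other named cluster in the mean over libraries, and at 601 ± 40.3 in cluster 1. Of the CD8 T-like clusters, cluster 8 (Ccl5, Ccl4, Gzma, Gzmk and Gzmb) had Cd28 at 621 ± 62.8 and Tnfrsf1b at 186 ± 37.6 CPM, against 198 ± 45.9 and 38.6 ± 5.87 in cluster 5 (Cd8b1, Ly6c2 and Plac8). Cd27 was at 107 ± 40.2 CPM in cluster 8 and 163 ± 38.9 in cluster 5. Over the same libraries it ranged from 68.2 to 157 and from 114 to 215 CPM. These ranges overlap, and the difference within libraries was not tested.

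**Figure D2:**
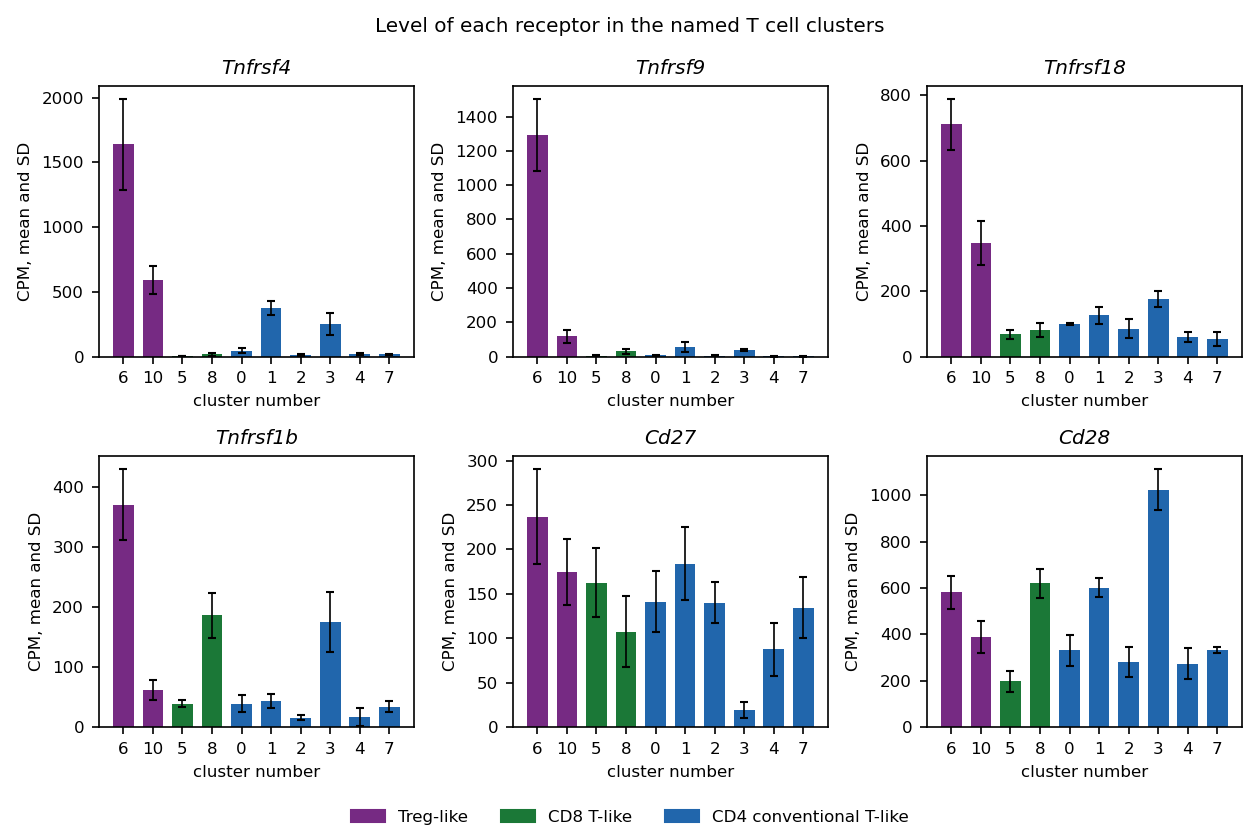
Mean level of each receptor in CPM in the 10 named alpha beta T cell clusters, with the SD over 5 libraries as error bars. Purple marks Treg-like, green CD8 T-like and blue CD4 conventional T-like clusters. Tnfrsf9 stands out in cluster 6, Tnfrsf4 also in clusters 10, 1 and 3, and Cd27 is lowest in cluster 3, where Cd28 is highest.

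Genes that work with the receptors followed the Treg pattern in part. A list of 64 ligands, adaptors, inhibitors and products of costimulation had 59 genes tested between gated classes, and 26 were higher and 13 lower in Treg than in CD4 conventional cells (median log2 change 0.34, against -0.02 over all genes). Of 15 TRAF and NF-kB genes, 9 were higher and 1 lower, among them Traf1 (1.33 ± 0.13), an adaptor of these receptors, the NF-kB subunit Rel (1.33 ± 0.12) and Nfkb2 (1.30 ± 0.13). Il2ra, the IL-2 receptor alpha chain and a Treg marker, was higher by 3.29, Tnfrsf8 (CD30) by 2.81, the survival gene Bcl2l1 by 2.35 and Ctla4, also a Treg marker, by 1.61. Cd40lg, the helper ligand for CD40, was lower by a log2 change of -2.81, Tnfrsf1a, the other TNF receptor, by -1.45, Tnf by -1.10 and the adaptor Grap2 by -1.06. Il2 and Crtam passed as lower as well, with 0 UMIs of either in gated Treg cells, against 212 Il2 UMIs and 109 Crtam UMIs in gated CD4 conventional cells. Of all genes tested 26.4% passed, 1334 higher and 1128 lower.

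Between Treg and CD8 cells 33 of the 59 genes were higher and 15 lower (median 0.39, against -0.04 over all genes, of which 35.1% passed). Tnfrsf8, with 4 UMIs in all gated CD8 cells, Il2ra (3.55), Ctla4 (2.61), Tnfrsf25 (2.24), Bcl2l1 (2.21) and Rel (1.93) led those higher in Treg cells. The adhesion receptor Cd226 (-2.31), Tnfrsf1a (-1.41), Grap2 (-1.31) and the kinase subunit Pik3cd (-1.23) were lower, and so were Il2 and Crtam, with 0 UMIs in gated Treg cells. Between CD8 and CD4 conventional cells 8 were higher, led by Crtam (3.26), Cd226 (2.45), Cd86 (1.67), Myc (0.75), Pik3cd (0.46) and Otulin (0.42), and 20 were lower, led by Cd40lg (-2.92), Tnfrsf8 (-2.46), Tnfrsf25 (-1.90), Cd5 (-1.32), Il2 (-1.12) and Malt1 (-1.09), where 24.7% of all genes passed. Of the ligands, those of Tnfrsf18, Cd27 and Tnfrsf4 were scarce in T cells. Tnfsf18 had 0 UMIs in the CD8 T-like and Treg-like sums, Cd70 was at 0 to 1.96 CPM and Tnfsf4 at 0 to 2.27 CPM there, and Tnfsf9 reached 22.4 CPM in Treg-like and 16.7 CPM in CD8 T-like sums. Tnf, a ligand of Tnfrsf1b, was at 35.8 to 50.9 CPM in Treg-like, 46.7 to 140.3 in CD8 T-like and 75.8 to 127 in CD4 conventional T-like sums, and Lta, another of its ligands, at 5.89 to 18.9, 3.66 to 9.77 and 9.76 to 13.4 CPM in the same order.

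Over the 15 sums of class and library, the members' own patterns were alike to different degrees. Pearson's r of log2(CPM + 10) was 0.99 between Tnfrsf9 and Tnfrsf18, 0.94 between Tnfrsf4 and Tnfrsf18, and 0.89 between Tnfrsf4 and Tnfrsf9. For Tnfrsf1b it was 0.89 with Tnfrsf9, 0.85 with Tnfrsf18 and 0.66 with Tnfrsf4. Between Cd27 and Cd28 it was -0.09. These points share libraries and fall into classes, so r mostly repeats the class differences. Among 6827 genes with a mean of at least 10 CPM, the 3 most like Tnfrsf4 were Cd83, Cd81 and Spty2d1 (r of 0.98 to 0.99), for Tnfrsf9 they were Tmem158, Flicr and Itgb8 (each 0.99), and for Tnfrsf18 Mif4gd, Samsn1 and Nrip1 (0.992 to 0.995). Tnfrsf1b was most like Il2rb (0.98), Fam129a and N4bp1 (each 0.97). Cd27 was like Coro1b (0.91) and 2210016F16Rik (0.90), and Cd28 like Rasgrp1 (0.93), Ern1 (0.92) and Ccnl1 (0.91).

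Cells of expanded clones carried more of most receptors than cells whose TCR was seen in no other cell, and less Cd27 in the CD8 class. A clone is the set of cells with the same TCR chains in a library, and it was called expanded from 2 kept cells on. In CD8 T-like cells Tnfrsf1b was at 177 and 231 CPM in expanded clones of the combination, 124 in those of S. Chamaejasme, and 145 and 232 in untreated ones, against 68.6, 64.6, 66.7, 114 and 77.1 CPM in single-cell clones of the same libraries. Expanded clones were higher in 5 of 5 libraries, and the log2 change was 1.03 ± 0.14 (adjusted p = 6.05e-06). Cd28 was at 660.1, 741, 593, 680.2 and 498 CPM in expanded clones, against 236, 281, 291, 419 and 354 CPM in single-cell clones. It was also higher in 5 of 5 libraries, without overlap between the groups (0.83 ± 0.11, adjusted p = 1.75e-06).

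Cd27 was at 117, 129, 70.7, 55.2 and 111 CPM in expanded CD8 clones, against 182, 209.6, 107, 130.02 and 107 CPM in single-cell clones. It was lower in 4 of 5 libraries, all but untreated replicate 2, and the change was -0.81 ± 0.13 (adjusted p = 3.95e-05). Tnfrsf9 (1.21 ± 0.39, adjusted p = 0.0262) and Tnfrsf4 (1.07 ± 0.35, adjusted p = 0.0279) passed at low levels, of 10.3 to 79.8 and 8.05 to 46.0 CPM in expanded clones, and neither passed in DESeq2 (adjusted p = 0.324 and 0.195). Tnfrsf9 was at 0.49 (adjusted p = 0.383) without untreated replicate 2 and 0.999 (0.101) without combination replicate 1, and Tnfrsf4 at 0.94 (0.12) without combination replicate 2. Tnfrsf18 did not pass (-0.01 ± 0.17). Thus 5 of 6 members passed, where 20.7% of all genes tested did.

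In CD4 conventional T-like cells Tnfrsf4 was at 329.7 and 306 CPM in expanded clones of the combination, 196 in those of S. Chamaejasme, and 379 and 333 in untreated ones, against 81.6, 106, 86.4, 159 and 116 CPM in single-cell clones. The groups did not overlap, and the change was 1.32 ± 0.09 (adjusted p = 9.54e-09). Tnfrsf1b (1.20 ± 0.11), Tnfrsf9 (0.94 ± 0.17), Cd28 (0.76 ± 0.07) and Tnfrsf18 (0.31 ± 0.09) were higher in expanded clones too, each in 5 of 5 libraries. Tnfrsf18 was lost without untreated replicate 2 (0.21, adjusted p = 0.0939) or combination replicate 2 (0.29, adjusted p = 0.0638), with DESeq2 (adjusted p = 0.0503) and with expanded clones counted from 5 cells (0.29, adjusted p = 0.53). Cd27 passed as lower (-0.43 ± 0.16, adjusted p = 0.0466), but its CPM was 177 and 189 in expanded clones of the combination, 66.7 in those of S. Chamaejasme, and 38.2 and 104 in untreated ones, against 154, 166, 108, 113 and 94.1 in single-cell clones. It was lower in 2 of 5 libraries only, and the call was lost without untreated replicate 1 (-0.27, adjusted p = 0.117) or without the S. Chamaejasme library (-0.32, adjusted p = 0.202). All 6 members passed, where 29.8% of all genes tested did.

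Treg-like cells had at least 20 expanded cells in 3 libraries. Tnfrsf4 was at 1822 and 1973 CPM in expanded clones of the combination and 2428 in those of S. Chamaejasme, against 1256, 1212 and 1469 CPM in single-cell clones (0.57 ± 0.10, adjusted p = 0.000305). Tnfrsf9 was at 1401, 929.6 and 2536 CPM against 793, 695 and 833 (0.87 ± 0.14), and Tnfrsf1b at 505, 525 and 459 CPM against 252, 275 and 228 (0.90 ± 0.15). All 3 were higher in expanded clones in 3 of 3 libraries, and Tnfrsf18 (0.36 ± 0.13), Cd27 (-0.27 ± 0.19) and Cd28 (-0.04 ± 0.14) did not pass, so that 3 of 6 members passed where 5.21% of all genes did.

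**Figure D3:**
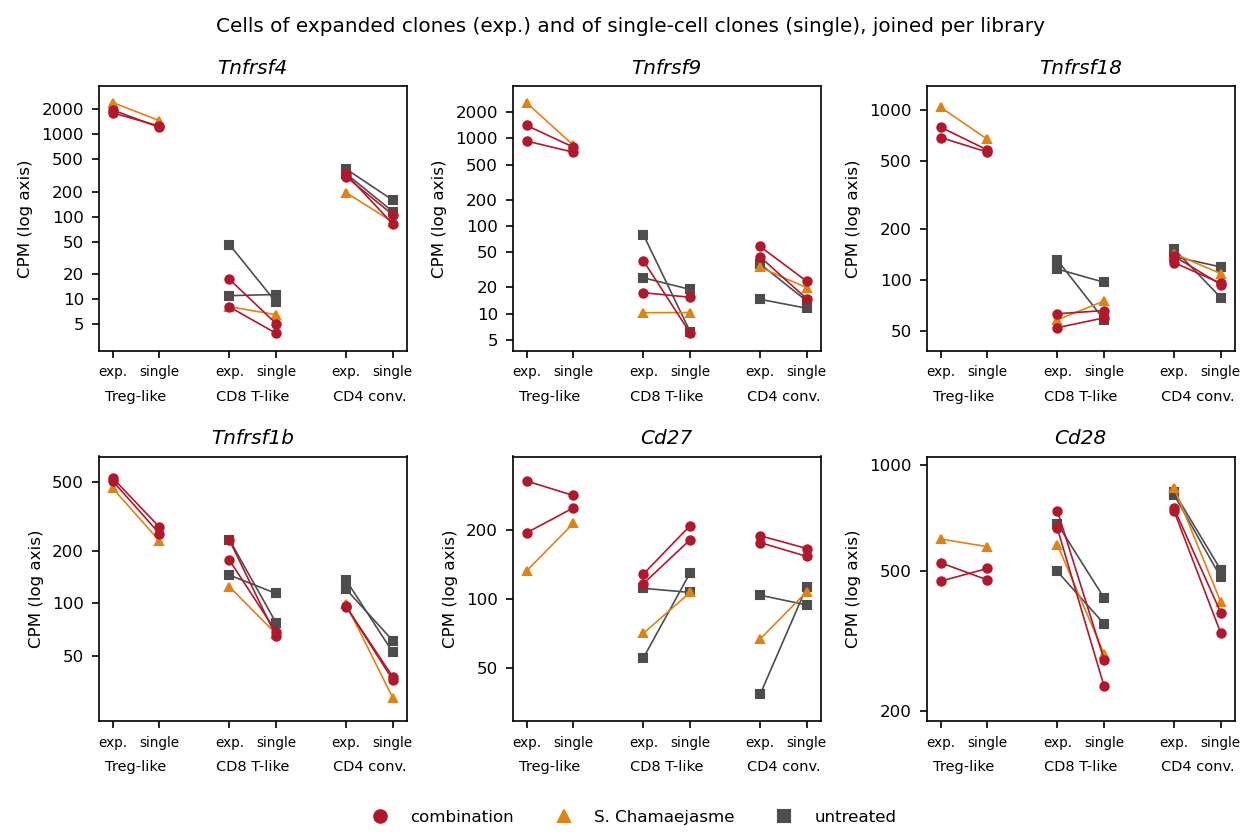
Level of each receptor in CPM (log axis) in cells of expanded clones, left, and of single-cell clones, right, with a line per library. Tnfrsf4, Tnfrsf9 and Tnfrsf1b slope down towards single-cell clones in every CD4 conventional and Treg-like library shown, while Cd27 slopes up in 4 of 5 CD8 T-like libraries.

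The clone differences were also taken within some single clusters, which hold fewer cells. Other clusters of these classes had no such fit. The share of all genes passing within a cluster is not given here, so a missed threshold does not show that a difference was absent. Within CD8 cluster 8 alone, 0 of 6 members passed in edgeR, with Tnfrsf1b at -0.02 (adjusted p = 0.997), Cd28 at 0.05 (0.946) and Cd27 at -0.24 (0.752). Mean Cd28 there was 633 ± 96.8 CPM in expanded and 611 ± 65.9 CPM in single-cell clones (SD, n = 5 libraries). Within CD4 clusters 1 and 3 alone, 0 of 6 members passed in either, and Tnfrsf4 was at 0.13 and -0.21. Within Treg cluster 6 alone, Tnfrsf9 still passed (0.49, adjusted p = 0.0312), and Tnfrsf1b (0.52, 0.0807) and Tnfrsf4 (0.35, 0.0712) did not.

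Larger clones did not show a further step in Cd28 or Tnfrsf1b of CD8 T-like cells. Mean Cd28 was 316 ± 71.6 CPM in clones of 1 cell (n = 5 libraries), 633 ± 67.7 in clones of 2 to 4 (n = 5), 644 ± 200.2 in clones of 5 to 9 (n = 4) and 533 ± 127 in clones of 10 or more cells (n = 2), and Tnfrsf1b was at 78.2 ± 20.5, 184 ± 55.1, 191 ± 62.2 and 177 ± 86.6 CPM. Cd27 was at 147 ± 46.5, 107 ± 36.7, 83.7 ± 26.8 and 67.4 ± 9.29 CPM. Neighbouring sizes overlapped within their spread from 2 cells on for all 3 genes. The bins hold different libraries, so no test was made over them.

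Of the costimulation list, 27 of 54 genes tested were higher and 2 lower in expanded CD8 clones (median 0.49, against 0.00 over all genes), where 20.7% of all genes passed. In expanded CD4 conventional clones 33 of 56 were higher and 6 lower (0.52, against -0.01), where 29.8% passed. In CD8 T-like cells the leaders were Il2ra (2.38, adjusted p = 2.16e-08), the survival genes Bcl2a1d (2.15), Bcl2l1 (1.71) and Bcl2a1b (1.69), the Cd28 relative Icos (1.64) and Cd40lg (1.46). Myc (-1.13) and the kinase Prkcq (-0.56) were lower. In CD4 conventional T-like cells they were Bcl2a1d (1.91), Bcl2a1b (1.76), Il2 (1.72), Bcl2l1 (1.70), Il2ra (1.65) and Icos (1.64), with Myc (-1.17), Mcl1 (-0.76), Tnfrsf1a (-0.67), Prkcq (-0.46), Traf5 (-0.45) and Pik3cd (-0.31) lower. Treg-like cells had 8 of 53 higher and 0 lower where 5.21% of all genes passed, among them Bcl2l1 (0.998), Rel (0.88), Bcl2a1d (0.86), Bcl2a1b (0.83), Icos (0.68) and Malt1 (0.66).

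Between treatments, Cd27 was higher in the combination than in untreated tumours in both CD8 and CD4 conventional T-like cells, and Cd28 was lower in both. In CD8 T-like cells Cd27 was at 175 and 199.8 CPM in the combination libraries, 96.5 in the S. Chamaejasme library, and 104 and 108 in the untreated libraries. Both combination libraries lay above the other 3, and the share of all genes separated this way is not given here. The log2 change was 0.81 ± 0.13 against untreated (adjusted p = 0.00544) and 1.07 ± 0.17 against S. Chamaejasme (adjusted p = 0.00602). For S. Chamaejasme against untreated it was -0.26 ± 0.17 (adjusted p = 0.43). Vamp1, which contains Cd27 on the opposite strand, was at 6.27 to 9.07 CPM in these sums.

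Cd28 was at 262 and 324 CPM in the combination's CD8 T-like cells, 437 in those of S. Chamaejasme, and 489 and 380 in untreated ones. The combination libraries lay below all others, again without the share of all genes separated this way. Cd28 changed by -0.56 ± 0.14 against untreated (adjusted p = 0.0441). It did not pass in DESeq2 (adjusted p = 0.0697), without combination replicate 1 (-0.42, adjusted p = 0.582) or without combination replicate 2 (-0.71, adjusted p = 0.138). Tnfrsf1b (-0.47 ± 0.13, adjusted p = 0.0544), Tnfrsf4 (-1.14 ± 0.35, 0.0869), Tnfrsf9 (-0.90 ± 0.29, 0.0947) and Tnfrsf18 (-0.38 ± 0.15, 0.158) did not pass. Thus 2 of 6 members passed against untreated, where 4.96% of all genes did, and 1 against S. Chamaejasme, where 1.57% did. Leaving out an untreated replicate leaves 1 untreated library, so those fits do not measure the spread between untreated libraries.

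In CD4 conventional T-like cells Cd27 was at 155 and 167 CPM in the combination libraries, 100.3 in the S. Chamaejasme library, and 97.9 and 92.5 in the untreated libraries (0.73 ± 0.09 against untreated, adjusted p = 0.0115). Cd28 was at 359 and 402 CPM in the combination, 491 in S. Chamaejasme, and 566 and 507 in untreated libraries (-0.52 ± 0.10, adjusted p = 0.0279). The combination libraries were the highest for Cd27 and the lowest for Cd28, without overlap. With so few libraries this says little, and the share of all genes separated this way is not given here. Tnfrsf1b was at 41.1 and 39.7 CPM in the combination, 43.0 in S. Chamaejasme, and 74.1 and 57.6 in untreated libraries (-0.72 ± 0.11, adjusted p = 0.0183), and here the S. Chamaejasme library lay beside the combination (-0.67 ± 0.14 against untreated, adjusted p = 0.0612). Tnfrsf4 (-0.57 ± 0.15, adjusted p = 0.0646), Tnfrsf9 (0.60 ± 0.24, 0.159) and Tnfrsf18 (-0.06 ± 0.13, 0.777) did not pass. Of the 6 members 3 passed against untreated, where 6.39% of all genes did. Each of the 3 was lost without combination replicate 1 and without combination replicate 2. Fits without a combination or an untreated replicate keep 1 library of that group, and do not measure its spread.

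In Treg-like cells no member passed between treatments in edgeR. Cd27 was at 245 and 278 CPM in the combination, 200.1 in S. Chamaejasme, and 202 and 162 in untreated libraries (0.48 ± 0.15, adjusted p = 0.126). Tnfrsf4 was at 1401 and 1390.5 CPM in the combination, 1739 in S. Chamaejasme, and 885 and 1204 in untreated libraries (0.34 ± 0.16 for the combination against untreated, adjusted p = 0.286). The combination and untreated libraries did not overlap for either gene, nor for Tnfrsf1b or Tnfrsf18. The share of all genes without such overlap is not given here, and with 2 libraries per group it says little. Untreated replicate 1 held 151 Treg-like cells. The changes were 0.15 ± 0.16 for Tnfrsf1b, 0.08 ± 0.15 for Tnfrsf18, -0.07 ± 0.16 for Tnfrsf9 and -0.13 ± 0.15 for Cd28 (adjusted p = 0.661 to 0.871). Against untreated 1 of 6 members had an unadjusted p under 0.05, and how many of all genes did is not given here. In DESeq2 0 members passed, and 0.773% of all genes passed in edgeR.

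No member passed for S. Chamaejasme against untreated in edgeR, where 2.14% of genes passed in CD8 T-like, 1.6% in CD4 conventional T-like and 0.863% in Treg-like cells. DESeq2 also called 0 in each class. In edgeR 1, 3 and 1 members had an unadjusted p under 0.05, and the share of all genes at that threshold is not given here. The changes in CD8 T-like cells were -1.29 ± 0.38 for Tnfrsf9 (adjusted p = 0.0937), -0.84 for Tnfrsf4, -0.35 for Tnfrsf18, -0.34 for Tnfrsf1b and -0.10 for Cd28. Those in CD4 conventional T-like cells were 0.75 ± 0.29 for Tnfrsf9 (adjusted p = 0.174), -0.52 for Tnfrsf4, -0.19 for Cd28, 0.16 for Tnfrsf18 and 0.01 for Cd27. In Treg-like cells they were 0.70 ± 0.19 for Tnfrsf4 (adjusted p = 0.0997), 0.38 for Tnfrsf9, 0.37 for Tnfrsf18, 0.22 for Cd28, 0.15 for Cd27 and -0.04 for Tnfrsf1b. The list of dissociation and stress genes, among them Fos and Jun, was highest in the S. Chamaejasme library in each class. In Treg-like cells it summed to 15655 and 14292 CPM in the combination, 20748 in S. Chamaejasme, and 13286 and 11368 in untreated libraries, and its part in the result was not tested.

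For the combination against S. Chamaejasme, 0 members passed in edgeR in CD4 conventional T-like and in Treg-like cells, where 0.202% and 0.213% of genes passed. Members at an unadjusted p under 0.05 were 2 and 1, without the share of all genes at that threshold, and DESeq2 called 1 and 0. Cd27 in CD4 conventional T-like cells was at 0.72 ± 0.11 in that comparison (adjusted p = 0.09), Cd28 at -0.33, Tnfrsf18 at -0.23, Tnfrsf9 at -0.15, and Tnfrsf4 and Tnfrsf1b each at -0.05. In Treg-like cells the changes were -0.45 for Tnfrsf9, -0.37 for Tnfrsf4, -0.35 for Cd28, -0.29 for Tnfrsf18, 0.33 for Cd27 and 0.20 for Tnfrsf1b. Beside Cd27, those in CD8 T-like cells were -0.46 for Cd28, 0.39 for Tnfrsf9, -0.30 for Tnfrsf4, -0.13 for Tnfrsf1b and -0.03 for Tnfrsf18. S. Chamaejasme had 1 library, assumed to vary like the others, and both treated groups were set against the same untreated libraries.

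**Figure D4:**
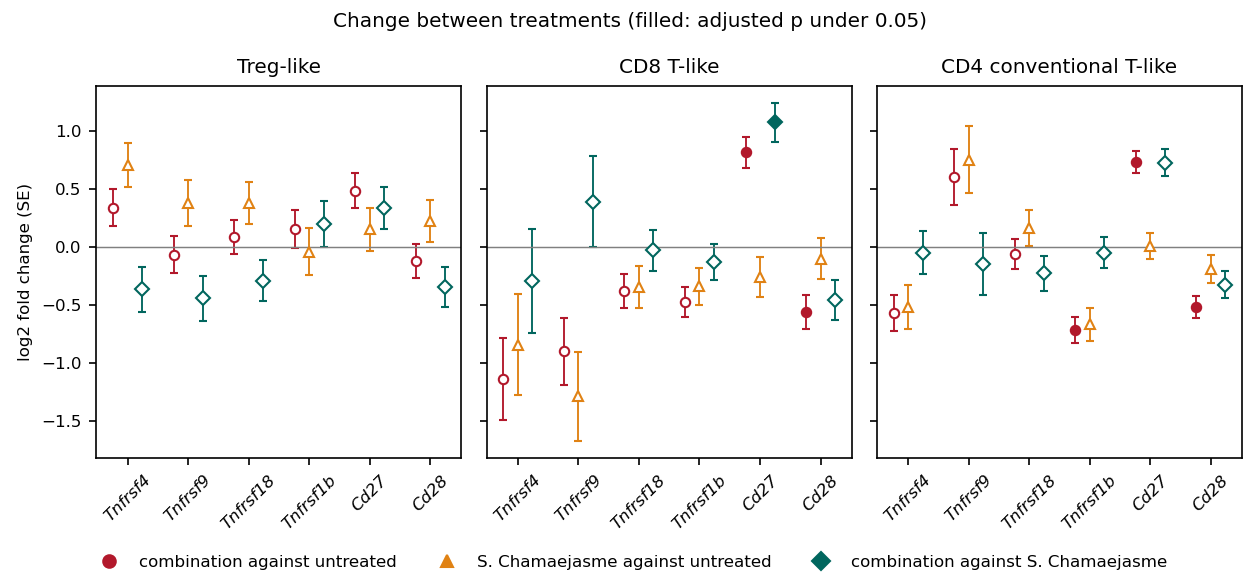
Log2 fold change of each receptor between treatments in the 3 cluster classes, with the SE as error bars. Filled points have an adjusted p under 0.05 in edgeR. Cd27 lies above 0 in the combination against untreated in every class and passes in CD8 T-like and CD4 conventional T-like cells, where Cd28 lies below 0 and passes.

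The class mixtures and the RNA of the libraries moved with treatment as well. Cluster 8 made up 27.0 and 29.9% of CD8 T-like cells in the combination, 70.3% in S. Chamaejasme, and 60.6 and 38.1% in untreated libraries. Within cluster 8 alone the change of Cd27 for the combination against untreated was 0.78 (adjusted p = 0.0465) and that of Cd28 was -0.12 (adjusted p = 0.73), and within cluster 5 alone they were 0.57 (adjusted p = 0.0573) and -0.44 (adjusted p = 0.15). Cluster 0 made up 33.9 and 36.2% of CD4 conventional T-like cells in the combination, 18.6% in S. Chamaejasme, and 4.06 and 2.97% in untreated libraries, and cluster 4 made up 18.4 and 18.7%, 19.8%, and 3.33 and 2.07% in the same order. Cluster 3, the one with the least Cd27 and the most Cd28, made up 6.83 and 6.67% in the combination, 24.2% in S. Chamaejasme, and 29.5 and 12.2% in untreated libraries. Within cluster 3 alone Cd27 was at 0.53 (adjusted p = 0.621), Cd28 at -0.09 (0.848) and Tnfrsf1b at -0.41 (0.445). Cluster 7 (leading genes Gm8797, Plaur, Zfand2a and Rgcc) made up 2.33 and 1.66% of CD4 conventional T-like cells in the combination, 0.936% in S. Chamaejasme, and 26.8 and 41.5% in untreated libraries. With cluster 7 left out, a setting added after seeing the data, Cd27 (0.84), Cd28 (-0.67) and Tnfrsf1b (-0.96) passed and Tnfrsf4 passed too (-0.98, adjusted p = 0.00417). Within single CD4 clusters Cd27 lay between 0.16 and 0.95 and passed in none of 6. The part of the other shifts in cluster makeup was not tested.

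AY036118, a non-coding transcript on the list of RNA quality genes, was at 1118 and 1079 CPM in the combination's CD8 T-like cells, 754 in those of S. Chamaejasme, and 2987 and 3733 in untreated ones. It was lower in both treated groups in all 3 classes, as was Lars2. That list summed to 31149 and 31458 CPM in the combination's CD8 T-like cells, 27336 in those of S. Chamaejasme, and 42797 and 51591 in untreated ones. A list of 7 monocyte markers summed to 487 and 410.1 CPM in the combination's CD8 T-like cells, 312 in those of S. Chamaejasme, and 301 and 282 in untreated ones, with 5 or 6 genes having a UMI. Most of it was Ly6c2 and Plac8, which also lead CD8 cluster 5, while Lyz2 was at 0.639 CPM or lower and Fn1 at 0. A list of 6 ILC2 (group 2 innate lymphoid cell) markers summed to 118 and 143 CPM in the combination's CD8 T-like cells, 261 in those of S. Chamaejasme, and 364 and 266 in untreated ones, with 3 to 5 genes having a UMI. Most of it was Rora, Il13 was at 0, and Il5 and Il1rl1 were at 0.244 CPM or lower. The monocyte list in CD4 conventional T-like cells summed to 42.9 and 39.2 CPM in the combination, 131 in S. Chamaejasme, and 101 and 69.5 in untreated libraries, and the ILC2 list to 209 and 224, 294, and 434 and 309 CPM in the same order. The part of these differences in the receptor changes was not tested. No batch is named in the labels, but untreated titles lack the prefix that treated ones carry, and treatment cannot be told apart from any batch with the same split.

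Whether the combination acted differently in different classes was tested by an interaction. Over CD4 conventional T-like cells, the change in Treg-like cells was larger by 0.92 ± 0.20 for Tnfrsf4 (adjusted p = 0.0443) and by 0.85 ± 0.17 for Tnfrsf1b (adjusted p = 0.0267), 2 of 6 members, where 0.711% of genes passed. Both calls were lost on leaving out each of the 5 libraries in turn (adjusted p = 0.0725 to 1), and Tnfrsf4 was at -0.07 without untreated replicate 1. The other members were at 0.39 (Cd28), 0.12 (Tnfrsf18), -0.21 (Cd27) and -0.67 (Tnfrsf9). Of the costimulation list 8 of 60 genes passed, all larger in Treg-like cells, led by Bcl2l1 (1.24), Bcl2a1d (1.10), Bcl2a1b (0.78), Nfkbia (0.75), Slamf1 (0.71) and Birc3 (0.70). For CD8 T-like over CD4 conventional T-like cells 0 of 6 members passed in edgeR, where 0.0212% of genes passed. At an unadjusted p under 0.05 there was 1 member, and the share of all genes at that threshold is not given here. Cd27 was at 0.09 ± 0.12, Cd28 at -0.04 ± 0.13, Tnfrsf9 at -1.48 ± 0.41 and Tnfrsf4 at -0.57 ± 0.48. Tnfrsf18 was at -0.31 ± 0.20 and Tnfrsf1b at 0.25 ± 0.18. A p that misses the threshold does not show that the classes respond alike. For Treg-like over CD8 T-like cells 0 members passed, where 1.02% of genes passed. All 6 had an unadjusted p under 0.05, again without the share of all genes at that threshold. Values were -0.30 for Cd27 and 0.43 (Cd28) to 1.48 (Tnfrsf4) for the others. There 12 of 60 list genes passed, all larger in Treg-like cells, led by Il2ra (2.90), Bcl2l1 (1.90), Bcl2a1d (1.33), Bcl2a1b (1.29), Birc3 (1.149) and Nfkb2 (1.005). The clone difference of Cd28 in CD8 T-like cells was larger in the combination than in untreated tumours by 0.74 ± 0.20 (adjusted p = 0.0405), 1 of 6 members where 0.421% of genes passed. That call was lost without untreated replicate 2 (0.57), combination replicate 1 (0.71) or combination replicate 2 (0.77). The other members were at 0.55 (Tnfrsf1b), 0.01 (Tnfrsf4), -0.23 (Cd27), -0.90 (Tnfrsf18) and -0.97 (Tnfrsf9). Ctla4, which competes with Cd28 for its ligands, was the 1 of 54 list genes that passed there (1.01 ± 0.21, adjusted p = 0.000774). In CD4 conventional T-like cells 0 of 6 passed in edgeR, where 0.0114% of genes passed, and 1 member had an unadjusted p under 0.05. Values lay between -0.20 for Tnfrsf18 and 0.67 for Cd27.

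Several genes of the costimulation list were lower in the combination in CD8 T-like and CD4 conventional T-like cells. These fits are over whole classes, whose cluster mixtures moved with treatment, and the part of that shift was not tested. Values of the list genes under alternatives are not given here. In CD8 T-like cells 2 of 58 genes tested were higher than in untreated tumours, Tnfrsf14 (0.998) and Crtam (0.77), and 16 were lower (median -0.26, against 0.01 over all genes). Of all genes tested 4.96% passed, 144 higher and 332 lower. The lower ones were led by Il2ra (-2.50, adjusted p = 0.000375), Bcl2l1 (-1.51), Tnfsf9 (-1.40), the ligand of Tnfrsf9, Bcl2a1b (-1.25), Bcl2a1d (-0.98) and Nfkb2 (-0.98). Of 15 TRAF and NF-kB genes 6 were lower, including Birc3, Relb, Rel, Nfkb1 and Traf1 (-0.94 to -0.69). Tnfsf9 was at 4.88 and 4.76 CPM in the combination's CD8 T-like cells, 11.2 in those of S. Chamaejasme, and 16.7 and 9.53 in untreated ones.

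In CD4 conventional T-like cells 0 of 60 list genes were higher and 10 were lower (median -0.20, against 0.00, with 6.39% of all genes passing, 264 higher and 462 lower), led by Bcl2l1 (-0.86), the NF-kB inhibitor Nfkbia (-0.75), Bcl2a1d (-0.75), Bcl2a1b (-0.74), Slamf1 (-0.72) and Malt1 (-0.72). In Treg-like cells 0 of 58 passed, where 0.773% of all genes did. For S. Chamaejasme against untreated, Treg-like cells had Bcl2l1 (1.29) and Birc3 (0.91) higher, CD8 T-like cells had Cd40lg higher (1.37) and Traf3 (-1.45), Nfkb2 (-1.06), Otulin (-0.86) and Nfkb1 (-0.84) lower, and CD4 conventional T-like cells had Mcl1 lower (-0.70). For the combination against S. Chamaejasme, Cd40lg (-1.97), Il2ra (-1.86), Bcl2a1b (-1.37), Tnf (-1.34) and Bcl2a1d (-1.30) were lower in CD8 T-like cells, and Bcl2a1d (-1.16) and Bcl2a1b (-1.03) in CD4 conventional T-like cells.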

How the data were processed

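Libraries were made with a droplet kit that reads the 5′ end of transcripts, per the labels. The deposited files hold raw UMI counts per gene and barcode, made with Cell Ranger 3.1.0 and STAR on mm10 per the submitters' processing notes. Neither annotation release nor strand setting is given in the sources used here. Deposited TCR tables list chains per barcode. Barcodes under 300 genes or over 10% mitochondrial UMIs were dropped. Doublets were removed at 0.8% of barcodes per 1000 cells by Scrublet score (its automatic threshold marked 17), and 618 cells had at least 2 productive TRB chains. In all, 1310 of 21549 cells were removed. Cells were clustered with scanpy 1.11.5 and leidenalg 0.10.2 (2000 variable genes without the 6 members, 30 components, resolution 1) into 15 clusters. Treg-like clusters were named from at least 3 raised markers, CD8 and CD4 conventional T-like ones from Cd4 against the mean of Cd8a and Cd8b1 (a ratio of at least 2), and CD4 ones also with at least 3 list markers detected. Thresholds for naming were set after the clusters were seen, and 10 of 12 settings tried named every T cell cluster as here.

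Counts were summed per library and class, with at least 20 cells per sum (5 for the gate of 2 Foxp3 UMIs), scaled to CPM for display, and tested with edgeR 4.0.16 (TMM, filterByExpr, quasi-likelihood, Benjamini-Hochberg over all genes) in R 4.3.3. Class and clone tests had the library as a block. DESeq2 1.42.0, no filter, other gates, single clusters and leaving out each library were alternatives, and DESeq2 was not run on interactions. The fits were tested on simulated data. Members and lists were chosen with earlier results of these data known. All 6 members are counted in every comparison, and named together with up to 6 list genes per direction with the largest change among those with an adjusted p under 0.05, and the 3 genes most like each member, of which 1 for Cd27 is not reported here. Replicate numbers follow accession order only. The number of UMIs per sum limits precision at low levels.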

Additional observations from a re-analysis of the deposited data

Results flagged for a closer look

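A difference between groups of cells under the same contrast passed for 3 results. The change of Tnfrsf1b in the combination against untreated tumours was larger in Treg-like than in CD4 conventional T-like cells by 0.85 ± 0.17 on the log2 scale (SE, edgeR's interaction term, adjusted p = 0.0267). The same difference for Tnfrsf4 was 0.92 ± 0.20 (adjusted p = 0.0443). On leaving out each of the 5 libraries in turn neither passed, with values of 0.47 to 0.93 for Tnfrsf1b and -0.07 to 1.06 for Tnfrsf4. In CD8 T-like cells the difference of Cd28 between expanded and single-cell clones was larger in the combination than in untreated tumours by 0.74 ± 0.20 (adjusted p = 0.0405), which passed in 2 of 5 such fits (0.57 to 0.90).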

How the results depend on the processing

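Of 39 calls among members in 20 comparisons, 413 values under alternatives were computed; 329 stayed past the threshold with the same sign, 74 kept the sign and missed it, and 10 changed sign. The 10 were Tnfrsf1b for CD8 T-like clones in cluster 8 alone (-0.021), Tnfrsf1b for the combination against untreated in CD4 clusters 1 (0.41) and 7 (0.071) alone, CD4 clone differences in cluster 1 alone for Tnfrsf9 (-0.26), Cd27 (0.15) and Cd28 (-0.081) and in cluster 3 alone for Tnfrsf4 (-0.21), Tnfrsf9 (-0.71) and Tnfrsf18 (-0.28), and the Treg over CD4 difference of Tnfrsf4 without untreated replicate 1 (-0.075; the highest value on leaving out a library was 1.063). The cause was not tested. Single clusters hold fewer cells. Between classes, the calls lost were Cd28 for Treg against CD8 in 5 of 10 alternatives, and Cd28 and Tnfrsf9 for CD8 against CD4 conventional in 1 each.

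Counts of members called moved as follows. The share of all genes passing under each alternative is not given in this or the next paragraph. Whether calls over all genes moved the same way can therefore not be read from these counts. Between treatments, leaving out a combination or untreated library keeps 1 library of that group. For the combination against untreated, CD8 T-like cells had 2, but 0 in cluster 5 alone, 1 in cluster 8 alone, 1 with DESeq2, 1 with no doublets removed, 5 in gated cells, 5 with no filter, and 1 to 5 on leaving out a library. CD4 conventional T-like cells had 3, but 0 in clusters 0, 3, 4 and 7 alone, 1 in clusters 1 and 2 alone, 5 with no filter, and 0 to 5 on leaving out a library; Treg-like cells had 0, and 0 to 1. For S. Chamaejasme against untreated the count was 0 in each class, but 1 in CD8 cluster 8 alone and 1 with no filter (0 to 2 on leaving out a library), 1 each in CD4 clusters 2 and 3 alone and with cluster 7 left out, 3 with no filter (0 to 3), and 0 to 3 in Treg-like cells. For the combination against S. Chamaejasme it was 1 in CD8 T-like cells, but 0 in clusters 5 and 8 alone (1 to 2), and 0 in CD4 conventional T-like cells, but 1 each in clusters 2 and 4 alone, with DESeq2 and with no filter (0 to 2), and 0 in Treg-like cells (0 to 3).

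For clones, CD8 T-like cells had 5, but 0 in cluster 8 alone, 3 with DESeq2, 3 when expanded meant 5 cells, and 3 to 5 on leaving out a library. CD4 conventional T-like cells had 6, but 0 in clusters 1 and 3 alone, 5 with DESeq2, 4 when expanded meant 5 cells, and 5 to 6 on leaving out a library. Treg-like cells had 3, but 1 in cluster 6 alone. Differences between treatments in clone effects ranged over 0 to 1 in both CD8 and CD4 conventional T-like cells, in class effects over 0 to 1 for CD8 over CD4 conventional, and all 5 left-out libraries gave 0 for Treg over CD4 conventional. No paired analysis was possible because, between treatments, replicate numbers follow accession order only; class and clone tests compared cells within libraries. Clone effects between treatments could not be fitted in Treg-like cells, where untreated libraries had too few expanded cells.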

Other observations

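Outside the 3 classes, gamma delta T-like cells had Tnfrsf1b at 216 ± 40.0 CPM (SD, n = 5 libraries) and Cd27 at 11.5 ± 11.7 CPM. Cd27 there reached at most 29.5 CPM in a library, below its level in every library of the CD8 T-like, CD4 conventional T-like and Treg-like classes. CD4 cluster 3, a part of these classes, had a similar level of 18.8 ± 8.92 CPM (10.6 to 31.7). The gamma delta sums held 21 to 89 cells per library. An unnamed cluster led by Pclaf, Stmn1, Birc5 and Mki67, genes of dividing cells, had Tnfrsf9 at 269 ± 89.7 CPM and Tnfrsf4 at 244 ± 57.7 CPM. These values are descriptions of clusters and were not tested.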
